A study of Danio rerio with 12 samples.

Results

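Complement is the set of plasma and tissue proteins that marks microbes, dying cells and debris for removal. C1q, built from the products of c1qa, c1qb and c1qc, opens the classical pathway, factor B and factor D drive the alternative pathway, C3 and C4 are the central proteins that become attached to a target, and C6, C7 and C9 belong to the terminal complex that pierces membranes. In the vertebrate brain C1q is made mainly by microglia, whereas most circulating complement proteins are made by the liver. Of 10 complement genes (c1qa, c1qb, c1qc, c3a.1, c4b, cfb, c6, c7b, c9 and cfd), 6 were matched to a probe of the array by its RefSeq accession: c1qa, c1qb, c1qc, cfb, cfd and c6, whose current symbol is c6.2. Each had 1 probe, and all 6 were among the 16136 transcripts tested. The other 4 genes, c3a.1, c4b, c7b and c9, matched no probe by accession and are not described. The array's own gene names were not searched, so probes for them may exist.

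The probes were designed on NM_001020527 (c1qa), NM_001003482 (c1qb), NM_001005976 (c1qc), NM_131338 (cfb), NM_001020532 (cfd) and NM_200638 (c6.2). In the GRCz12tu gene order, used only for names and neighbours because the array was annotated on another build, c1qb, c1qc and c1qa lie next to each other on chromosome 21. Also on chromosome 21, c6.2 adjoins c7b and cfb adjoins bfb, whereas cfd lies on chromosome 13.

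Brain RNA of adult zebrafish was measured 24 h after injection on 12 single-colour Agilent arrays, 3 for each of 4 groups: fish injected with synthetic dsRNA (poly(I:C)) with access to a thermal gradient (Td), fish given the same dsRNA without a gradient (Ti), PBS-injected sham fish in a gradient (Sd), and non-injected control fish (C). The labels give 9 fish for each group, pooled by 3 for an array, and 1 mg of dsRNA per kg, whereas the methods give another dose. The methods keep C fish out of the gradient and the labels put them in it, so Sd and C differ in the injection and, by the methods, in the gradient too. Whole brains were taken, and the labels give no perfusion or dissection step. The results text speaks of individual fish, so the p-values measure the spread between these arrays, whatever their pools hold.

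Each slide held 1 array of every group, and the replicate number is the slide number. On every slide C lay at position 1, Sd at 2, Ti at 3 and Td at 4. Group and position on the slide therefore cannot be told apart, within slides or with the slide as a block. Features well above background made up 14.5% of those on the dimmest array (Ti replicate 3) and 24.5% to 50% on the other arrays, and none was saturated. In the deposited table of the whole series the Td and Ti columns are exchanged relative to each array's scanner output and own table. The values below follow the scanner output, and the deposited values do not settle which is right, so the sign of every difference between Td and Ti is open. Contrasts of all 6 dsRNA arrays do not depend on it. Ti replicate 1 and C replicate 2 also stood apart: 15 and 14 of 16 hepatocyte markers on the array were well above background there, against 4 to 6 on each of the other 10 arrays. Levels are log2 of the signal over the 75th percentile of the array, so that 0 is that percentile, and a transcript was called at an adjusted p under 0.05 in limma's moderated test over all transcripts. The levels of different probes are not compared. In whole tissue, fewer cells of a type and less RNA per cell cannot be told apart. The genes were chosen by their names as complement genes with earlier results of these arrays in view, and no level or p-value enters the match to probes, so their p-values describe them and are not independent support.

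The mean levels of the C1q genes were lowest in C brains, intermediate in Sd brains and highest in dsRNA brains. The mean of both dsRNA groups was above the mean of Sd and C by 4.59-fold for c1qa, 3.75-fold for c1qb and 3.11-fold for c1qc. All 3 were called, and none of cfb, cfd and c6.2 was.

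The C1q A chain gene, c1qa, stood at 1.85, 1.64 and 1.73 on the log2 scale on the Td arrays, at 1.82, 1.49 and 1.52 on the Ti arrays, at 1.21, 0.51 and 0.13 on the Sd arrays, and at -1.61, -1.72 and -1.67 on the C arrays. Every dsRNA array was above every Sd array, and every Sd array was above every C array. The probe was well above background on all 9 injected arrays but on only 1 of 3 C arrays. The spread among Sd arrays (SD 0.55) was wider than among Td (0.11), Ti (0.18) or C arrays (0.06, n = 3 each). Such a stepwise order, without overlap at either step, was met by 32 of the 16136 transcripts (0.198%).

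The B chain gene, c1qb, measured 3.64, 3.73 and 3.83 on the Td arrays, 2.97, 3.67 and 3.55 on the Ti arrays, 2.50, 2.99 and 2.55 on the Sd arrays, and 0.48, 0.74 and 0.71 on the C arrays (log2 levels). It was well above background on all 12 arrays. It showed the same order of group means as c1qa, but Ti replicate 1 at 2.97 lay just under Sd replicate 2 at 2.99, and all injected arrays stood above all C arrays. Of all transcripts, 7.57% had the dsRNA arrays above C without overlap and 16.8% the Sd arrays. The share with both was not computed.

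For c1qc, the C chain gene, log2 levels were 5.34, 5.64 and 6.54 on the Td arrays, 4.48, 5.55 and 5.24 on the Ti arrays, 4.31, 4.94 and 4.48 on the Sd arrays, and 2.64, 3.31 and 3.30 on the C arrays. This probe, too, was detected on every array. The Td arrays all exceeded the Sd arrays, as for 16.7% of all transcripts, and the Ti and Sd arrays overlapped. The C arrays were again the lowest of the 12, with the shares of all transcripts given for c1qb. As a description over 12 arrays, the centred profiles of c1qa and c1qb differed by 0.315 on the log2 scale on average, those of c1qb and c1qc by 0.315 and those of c1qa and c1qc by 0.57, against a median over 8033 named genes of 1.24 from c1qa, 1.06 from c1qb and 0.94 from c1qc.

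**Figure D1:**
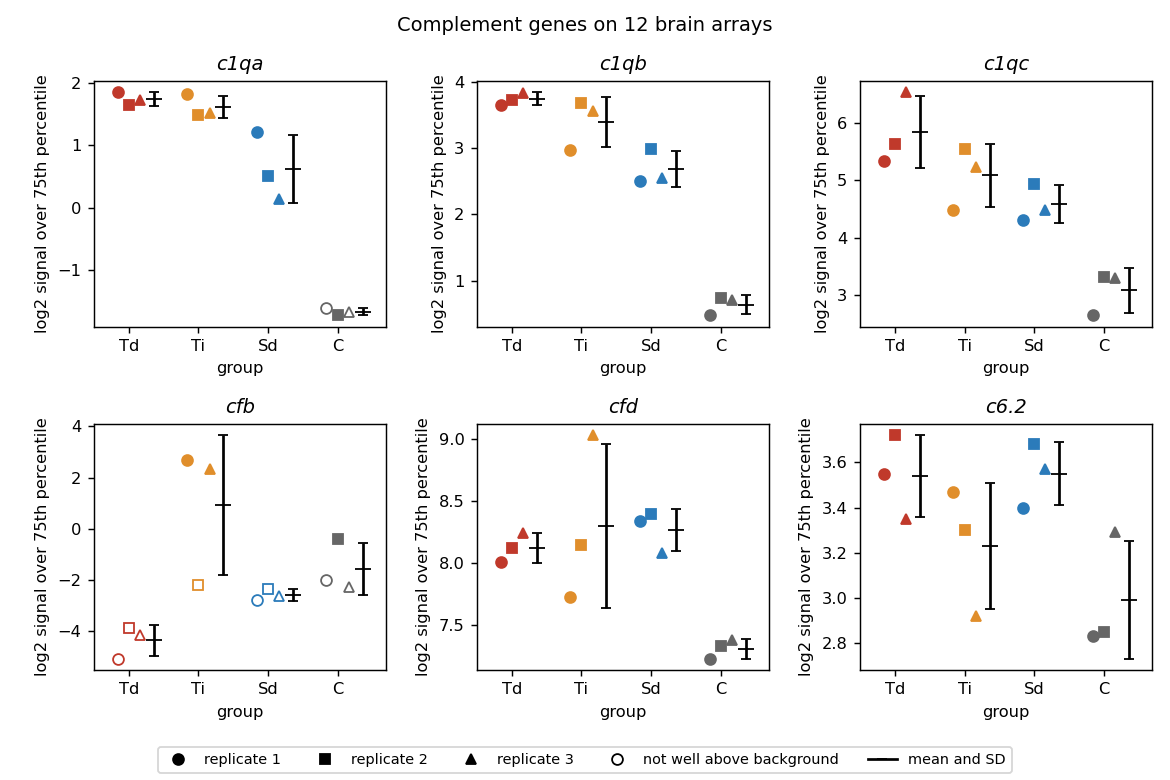
Log2 signal over the array's 75th percentile (y axis) of 6 complement genes in groups Td, Ti, Sd and C (x axis). Symbols are the 3 replicates of a group, hollow where the probe was not well above background, and bars are the mean and SD. The means of the C1q genes step down from the dsRNA groups to Sd to C, by array without overlap for c1qa only, cfb is detected on 3 arrays only, and cfd is lowest on the C arrays.

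Which transcripts differ after dsRNA was first asked with all 6 dsRNA arrays against the 6 others. Of the 6 members, 3 were called higher, where 1.45% of all transcripts were called in either direction and 1.23% higher. The log2 difference of c1qa was 2.2 ± 0.21 (SE, adjusted p = 0.000473 in limma), ranking 15 of 16136 by p. That of c1qb was 1.91 ± 0.20 (adjusted p = 0.000721, rank 21) and that of c1qc was 1.64 ± 0.29 (adjusted p = 0.0169, rank 113). Within single slides the differences were 2.03 to 2.40 for c1qa, 1.82 to 2.06 for c1qb and 1.44 to 2.00 for c1qc, so each slide gave the same direction. The call of c1qc was lost without Sd replicate 3 (adjusted p = 0.0508). With Ti replicate 1 and C replicate 2 both left out, an alternative chosen after the hepatocyte markers had been seen, the 3 genes were still called (2.13, 2.04 and 1.84, adjusted p = 0.00682, 0.00401 and 0.0311 in limma). The median difference over the 6 members was 1.03, against 0.07 over all transcripts.

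This contrast averages 2 steps of unequal size, which were taken apart in 2 contrasts added after the data had been seen. Against C alone, the dsRNA arrays were 10.1-fold higher for c1qa (log2 difference 3.34 ± 0.26, adjusted p = 0.000149), 7.59-fold for c1qb (2.92 ± 0.25, adjusted p = 0.000208) and 5.22-fold for c1qc (2.38 ± 0.35, adjusted p = 0.00573 in limma). These 3 members were called, against 2.95% of all transcripts, and c1qa ranked 4 and c1qb ranked 7 of all transcripts by p. Normexp gave smaller differences from C, of 2.41 for c1qa (adjusted p = 0.00936), 2.53 for c1qb (adjusted p = 0.0388) and 1.92 for c1qc (adjusted p = 0.108), and the c1qc call was also lost with the 50th percentile (adjusted p = 0.138) and with no filter on dim probes (adjusted p = 0.0551). Against Sd alone, none of the 6 members was called, against 1.67% of all transcripts called and 1.3% called higher, whereas with the slide as a block c1qa was called (adjusted p = 0.0428). The dsRNA arrays lay above Sd by 1.06 ± 0.26 for c1qa (95% interval 0.48 to 1.64, adjusted p = 0.0673), 0.89 ± 0.25 for c1qb (0.35 to 1.43, adjusted p = 0.0956) and 0.89 ± 0.35 for c1qc (0.12 to 1.65, adjusted p = 0.225 in limma). The unadjusted p was under 0.05 for all 3, as it was for 17.2% of all transcripts. Within slides this step was 0.63, 1.06 and 1.5 for c1qa, 0.81, 0.71 and 1.14 for c1qb and 0.60, 0.65 and 1.41 for c1qc, positive on each slide.

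Between Sd and C, which differ in the sham injection, in position on the slide and, by the methods, in the gradient, 597 transcripts were called. This count fell to 0 without Sd replicate 2, 4 without C replicate 3, 100 without Sd replicate 3, 177 without C replicate 1, 260 without Td replicate 2 and 224 without Td replicate 3, and was 1179 without Ti replicate 3. Sd brains had 4.86-fold the c1qa signal of C brains (log2 difference 2.28 ± 0.30, adjusted p = 0.0122) and 4.1-fold the c1qb signal (2.04 ± 0.28, adjusted p = 0.0122). For c1qc the difference was 1.5 ± 0.40 (2.82-fold, adjusted p = 0.0655 in limma), which was not called. Of the 6 members 2 were thus called higher, against 3.7% of all transcripts called in either direction and 2.5% called higher. Replicate numbers pair these 2 groups, and with the slide as a block c1qc was called too (adjusted p = 0.0284). Both calls were lost without Sd replicate 2 (adjusted p = 0.0637 for each) and without C replicate 3 (adjusted p = 0.0533 for each), with log2 differences of 1.88 to 2.33. With normexp background correction the log2 differences were smaller and not called (c1qa 1.3, adjusted p = 0.175; c1qb 1.39, adjusted p = 0.287; c1qc 0.96, adjusted p = 0.503), and c1qa was well above background on only 1 C array. The Sd arrays lay above the C arrays without overlap for the 5 members other than cfb, as they did for 16.8% of all transcripts (28.1% in either direction). The order of cfb, well above background on no Sd array and on 1 C array, is not given. Within slides c1qa was higher in Sd by 2.81, 2.23 and 1.80, c1qb by 2.02, 2.25 and 1.84 and c1qc by 1.68, 1.63 and 1.18.

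Ti brains were compared with C brains directly, which differ in the injection as well as in dsRNA and, by the labels, in the gradient. In Ti brains c1qa was 9.67-fold higher (3.27 ± 0.30, adjusted p = 0.000321), c1qb 6.74-fold higher (2.75 ± 0.28, adjusted p = 0.000677) and c1qc 4.03-fold higher (2.01 ± 0.40, adjusted p = 0.0401 in limma). These 3 of 6 members were called, where 1.23% of all transcripts were. The c1qc call was the least firm, and held in 4 of 12 refits that left out 1 array each: it was lost without Td replicate 2, Ti replicates 2 or 3, Sd replicates 2 or 3, or any C replicate, with differences of 1.78 to 2.12. The other 2 genes were called in all 12 refits. With the 50th percentile neither was called (adjusted p = 0.0977 for c1qa and 0.241 for c1qb). With normexp c1qa was called at 2.23 (adjusted p = 0.0383) and c1qb was not (2.21, adjusted p = 0.158 in limma). The c1qc call was also lost under both settings and with no filter on dim probes. It was lost in the unmoderated test (adjusted p = 0.0732) and with Ti replicate 1 and C replicate 2 left out (adjusted p = 0.0787 in limma).

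Within the gradient, the Td arrays lay above the Sd arrays in all 3 C1q genes without overlap, as they did for 16.7% of all transcripts. The differences were 1.13 ± 0.30 for c1qa (2.18-fold, adjusted p = 0.141), 1.06 ± 0.28 for c1qb (2.08-fold, adjusted p = 0.137) and 1.26 ± 0.40 for c1qc (2.40-fold, adjusted p = 0.203 in limma). None of the 6 members was called, and 0.26% of all transcripts were; at an unadjusted p under 0.05 it was 3 members, against 13.4% of all transcripts.

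Whether the gradient altered the C1q genes in dsRNA fish is addressed by Td against Ti. The differences were 0.13 ± 0.30 for c1qa (95% interval -0.53 to 0.80, adjusted p = 0.943), 0.34 ± 0.28 for c1qb (-0.28 to 0.96, adjusted p = 0.815) and 0.75 ± 0.40 for c1qc (-0.14 to 1.63, adjusted p = 0.774 in limma). None of the 6 members was called and 0.0062% of all transcripts, a single one, were. An unadjusted p under 0.05 was reached by cfb alone of the members, and by 5.87% of all transcripts. Exchanging the 2 dsRNA groups turns these signs, and the intervals of c1qb and c1qc, though not that of c1qa, reach the size of their differences between dsRNA and Sd. Td against Sd and Ti against C were also set against each other, though their controls are unlike. Td against Sd sets dsRNA against saline, whereas C fish were not injected, so Ti against C holds the injection as well as dsRNA. The first minus the second was -2.15 for c1qa (adjusted p = 0.131), -1.69 for c1qb (adjusted p = 0.145) and -0.75 for c1qc (adjusted p = 0.62 in limma). No member and no transcript (0%) was called in this test by limma, in which 4 of 6 members and 14.2% of transcripts had an unadjusted p under 0.05. With Td and Ti exchanged, an alternative chosen after the deposited tables had been compared, c1qa (-2.41, adjusted p = 0.0451) and c1qb (-2.38, adjusted p = 0.0398 in limma) were called. Since Sd and C enter this contrast with opposite signs, the higher Sd level is part of it, and the contrast does not isolate the gradient.

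**Figure D2:**
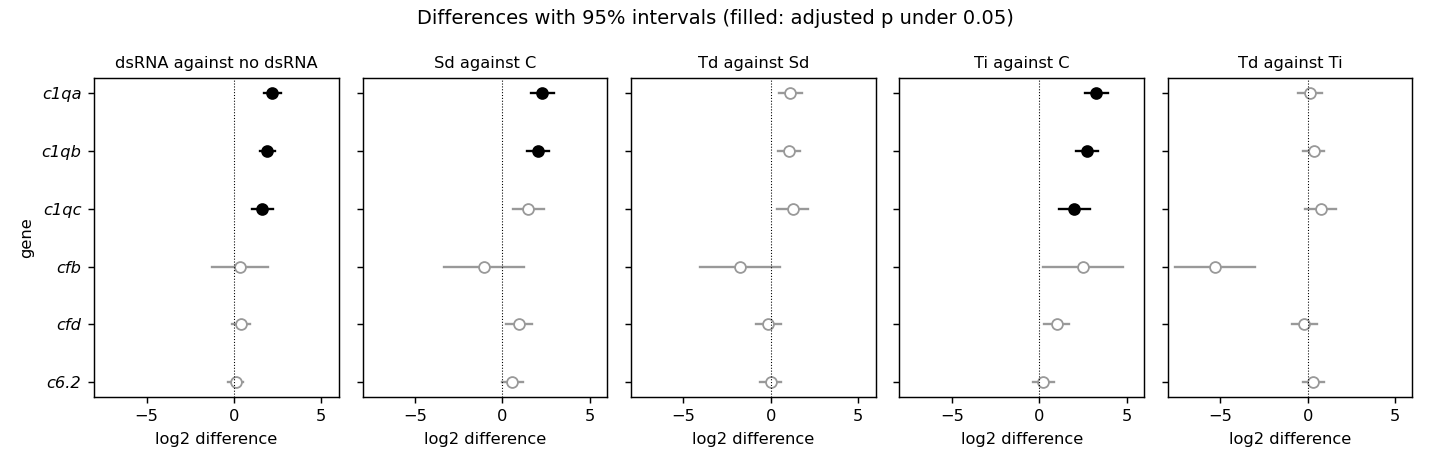
Log2 differences of 6 complement genes (rows) with 95% intervals from limma in 5 comparisons (panels), filled black where the adjusted p was under 0.05. The 3 C1q genes are filled for dsRNA against no dsRNA and for Ti against C, c1qa and c1qb also for Sd against C, and cfb, not well above background on 9 of 12 arrays, has the widest intervals.

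C1q is made by microglia in brain, so the levels of microglia and macrophage markers were set beside these results. Of 31 listed markers 20 were on the array and 17 were tested. Their summed linear signal, in multiples of the 75th percentile, ran from 209 to 291 on the Td arrays, from 170 to 314 on the Ti arrays, from 257 to 343 on the Sd arrays and from 102 to 116 on the C arrays. The C arrays were the lowest, as for C1q, whereas the ranges of the Sd and dsRNA arrays overlapped. Of these 17 genes apoeb had the highest level on every array, so it weighs most in the sums. Its own difference between dsRNA and Sd was -0.52 (adjusted p = 0.322 in limma).

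In Sd against C, 14 of the 17 markers were higher (53.5% of all transcripts were) and 5 were called (apoeb, mpeg1.1, mfap4.1, ctss2.2 and coro1a, against 3.7% of all transcripts), with a median log2 difference of 1.42 against 0.07 over all transcripts. In the dsRNA arrays against C, 16 were higher (55.6% of all transcripts were), with a median of 1.36. Called were mpeg1.1, mfap4.1, coro1a and havcr1 (2.95% of all transcripts were). In dsRNA against no dsRNA 15 were higher (56.1% of all were), and mfap4.1 and havcr1 were called (1.45% of all were). In the dsRNA arrays against Sd, 8 were higher and 9 lower (50.3% of all transcripts were higher), none was called, and the median was -0.27 against 0.00 over all transcripts. Differences in this step ran from -1.4 (ctss2.2, adjusted p = 0.309) to 3.1 (lgals3bp.1, adjusted p = 0.115 in limma). The macrophage gene mpeg1.1, for a pore-forming protein, stood at 2.79, 2.59 and 3.14 in Td, 2.53, 2.76 and 2.96 in Ti, 2.95, 2.73 and 2.68 in Sd and 1.69, 1.35 and 1.53 in C brains. It was 2.40-fold higher in Sd than in C (adjusted p = 0.0323), and between dsRNA and Sd its log2 difference was 0.01 (95% interval -0.50 to 0.52, adjusted p = 0.988 in limma). The leukocyte actin-binding gene coro1a was 4.13-fold higher in Sd than in C (adjusted p = 0.0145) and differed by -0.49 between dsRNA and Sd (adjusted p = 0.404). Of the 8 markers higher in dsRNA than in Sd, mfap4.1 was 4.63-fold higher in Sd than in C (adjusted p = 0.0261). Its difference between dsRNA and Sd was 0.575 (95% interval -0.25 to 1.40, adjusted p = 0.465 in limma). It was well above background on only 1 C array. The phagocytic receptor gene havcr1 was well above background on 3 Td and 2 Ti arrays and on no Sd or C array. It passed the detection filter through dsRNA arrays alone, so its calls above and its difference from Sd are not read. The receptor gene csf1ra, which defines macrophages and microglia, was well above background on the 3 Td arrays only. Its levels there were -1.77, -1.86 and -1.44. On the Ti arrays they were -2.48, -2.42 and -1.21, the last on the dimmest array. The gene csf1ra passed the detection filter through the Td arrays alone, so its difference between Td and Ti is not given. Both csf1ra and havcr1 remain in the counts of the 17 markers. The part of these cells in the C1q differences was not tested.

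Markers of other cells were compared between Sd and C in the same way, beside 53.5% of all transcripts that were higher in Sd and 3.7% that were called. Of 3 neutrophil markers 3 were higher in Sd (mmp9 called), of 4 lymphocyte markers 4 (cd4-1 and zap70 called), of 9 meningeal and vessel markers 9 (col1a1a and col1a1b called), and of 7 erythrocyte markers 7 (none called), whereas of 12 neuronal markers 10 (elavl3 called) and of 13 glial markers 10 (none called) were lower. The meningeal and vessel sum was 234 to 302 in Td, 131 to 185 in Ti, 261 to 439 in Sd and 141 to 160 in C brains. With Td and Ti exchanged, the ranges of these groups change places. The part of these cells in the C1q differences was not tested either. Of 4 acute-phase genes 4 were higher in Sd than in C, crp4 being called. Of 10 anti-viral genes 7 were called higher in dsRNA arrays against Sd, against 1.3% of all transcripts, with a median log2 difference of 2.58. In Td against Ti all 10 of these were lower, none of them called, and this sign turns if both groups are exchanged.

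**Figure D3:**
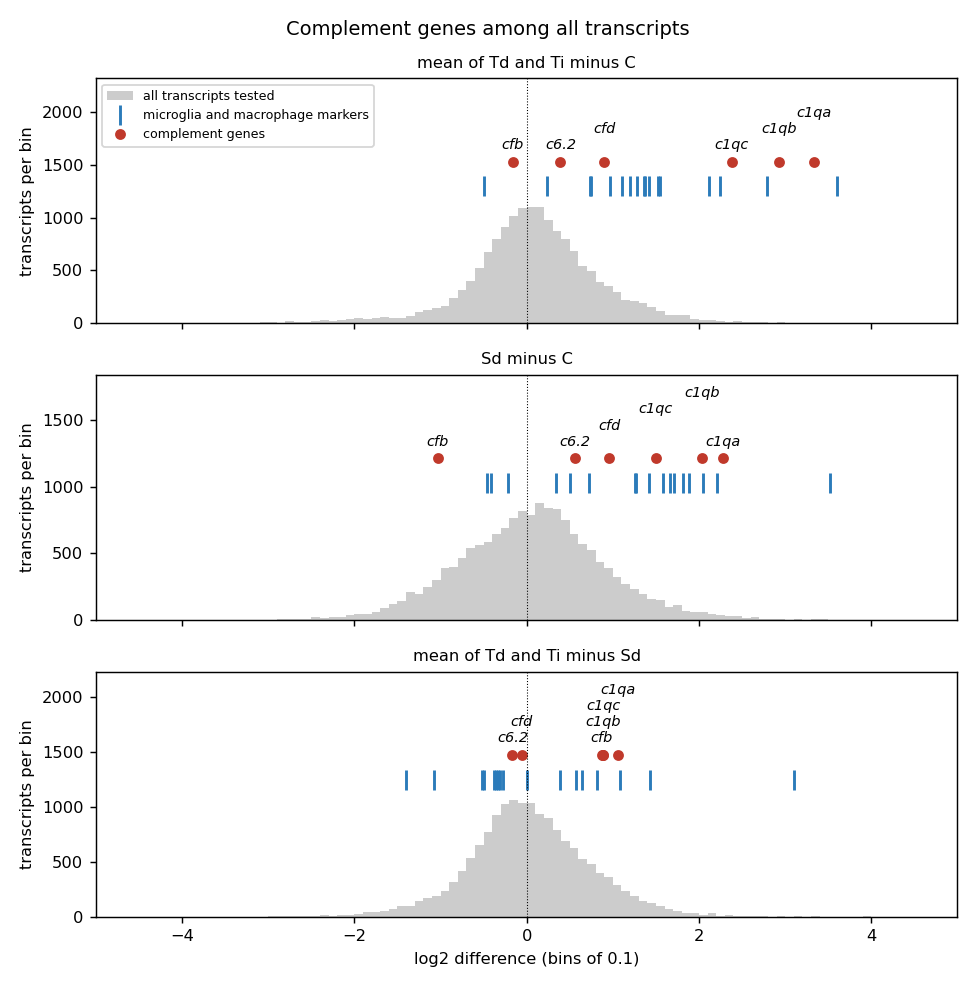
Number of transcripts (y axis) by log2 difference (x axis) for the dsRNA arrays against C, Sd against C and the dsRNA arrays against Sd, which share arrays. Red points are the 6 complement genes and blue ticks the 17 microglia and macrophage markers, placed above the histogram at heights without meaning, and 10, 4 and 1 transcripts lie outside the axis. The C1q genes lie at 2.38 to 3.34 in the top panel, at 1.5 to 2.28 in the middle and at 0.89 to 1.06 in the bottom panel, where the markers have a median of -0.27.

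Among genes that are not members, those with the centred profile closest to a C1q gene were zgc:158701 (mean absolute log2 difference 0.25 over 12 arrays), btr09 (0.33) and dram1 (0.42) for c1qa, btr09 (0.32), si:dkey-58f10.10 (0.34) and dram1 (0.35) for c1qb, and plek (0.30), zgc:55461 (0.33) and aplp2 (0.39) for c1qc. Both btr09 and dram1 recur for c1qa and c1qb, whose own profiles differed by 0.315. For dram1 the levels were 3.14, 2.71 and 3.49 in Td, 3.30, 3.80 and 3.24 in Ti, 1.69, 2.32 and 1.62 in Sd and 0.55, 0.45 and 0.61 in C brains, a stepwise order without overlap. This gene was picked for its closeness to the C1q profiles, so the shared order is no separate result.

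Of the proteases of the alternative pathway, cfd, which encodes factor D, was detected on every array. Its log2 levels were 8.01, 8.12 and 8.24 in Td, 7.73, 8.15 and 9.03 in Ti, 8.34, 8.40 and 8.08 in Sd, and 7.23, 7.33 and 7.38 in C brains. All 9 arrays of injected fish exceeded the 3 C arrays, but none of the differences was called with all arrays. Such separation from C held for 7.57% of all transcripts in the dsRNA arrays and for 16.8% in the Sd arrays. Without Ti replicate 3, the dimmest array, that between Sd and C was (0.96, adjusted p = 0.0356 in limma). It lay above C by 0.96 ± 0.33 in Sd (1.94-fold, 95% interval 0.23 to 1.68, adjusted p = 0.123) and by 0.99 ± 0.33 in Ti (1.99-fold, 0.27 to 1.71, adjusted p = 0.174). In dsRNA against no dsRNA its difference was 0.42 ± 0.23 (-0.09 to 0.93, adjusted p = 0.411 in limma). No step between dsRNA and Sd was visible in the arrays, with Td minus Sd at -0.15 (-0.87 to 0.58, adjusted p = 0.895) and Td minus Ti at -0.18 (-0.90 to 0.54, adjusted p = 0.922). The 3 nearest profiles to cfd were tuba8l4 (0.15), psmb2 (0.17) and nutf2l (0.17).

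The factor B gene, cfb, behaved unlike the rest. Its levels were -5.06, -3.87 and -4.13 in Td, 2.68, -2.20 and 2.32 in Ti, -2.77, -2.35 and -2.62 in Sd, and -2.01, -0.38 and -2.25 in C brains. Only Ti replicates 1 and 3 and C replicate 2 were well above background, so the values of the other 9 arrays have no order. The mean cfb level of all 3 Ti arrays was 14.9-fold that of Td and 8.04-fold that of Sd. In both, the dim group took the larger of the signal and the lowest detected signal on each array. Ti replicate 2, not well above background, is part of the Ti mean, so these folds are not strict lower bounds. With normexp background correction Td minus Ti was -1.27 (adjusted p = 0.826) and Ti minus C was 0.81 (adjusted p = 0.885 in limma). The size of the cfb differences thus depends on how background is handled. The limma test called neither the difference between Td and Ti (adjusted p = 0.599) nor that between Ti and C (2.48 ± 1.05, adjusted p = 0.278). Without Ti replicate 2, the array on which Ti brains had no detected signal, both differences were called. That refit keeps only the Ti arrays that detected cfb, so these calls are not read. Within slides Ti minus C was 4.69, -1.82 and 4.57. For dsRNA against no dsRNA the difference was 0.36 ± 0.74 (-1.26 to 1.98, adjusted p = 0.859), and Sd against C was not called either (adjusted p = 0.616 in limma). By the same computation C lay 1.44-fold above Sd, with C replicate 2 the only one of these arrays well above background. Neither Td nor Sd had a detected array, so any cfb difference between them is not read.

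The arrays that detected cfb were also set beside hepatocyte markers. The liver fatty acid binding protein gene fabp10a stood at -3.07, -3.80 and -4.60 in Td, 6.75, -3.01 and 1.54 in Ti, -0.98, -2.09 and -3.54 in Sd, and 0.87, 5.06 and -2.60 in C brains. It was well above background on Ti replicates 1 and 3 and C replicates 1 and 2, which include the 3 arrays that detected cfb. Over 7 hepatocyte markers tested the summed signal was 155 to 222 in Td, 164 to 340 in Ti, 184 to 218 in Sd and 80.8 to 193 in C brains, highest on Ti replicate 1 (340) and, among C arrays, on C replicate 2 (193). Of these 7 genes rbp4 had the highest level on every array, so it weighs most in the sums. It stood at 6.20 to 6.75 in C brains and at 7.17 to 7.79 in the other groups. On Ti replicate 3, where cfb stood at 2.32, only 4 of 16 hepatocyte markers were detected, fabp10a among them. That was the dimmest array, with 14.5% of features well above background, so markers not detected there are not read as absent. Before scaling, the cfb signal was 171.89 there, 296.88 on C replicate 2 and 3446.1 on Ti replicate 1. The sum of the 7 tested markers there (164) was the lowest of the Ti arrays. No marker of this list was called in any comparison. With Ti replicate 1 and C replicate 2 left out, cfb was called neither between Td and Ti (adjusted p = 0.303) nor between Ti and C (2.19, adjusted p = 0.375 in limma). The part of liver RNA in the cfb signal was not tested. Nearest to cfb in profile were itln3 (0.89), pla2g12b (0.91) and pnp4b (0.92).

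**Figure D4:**
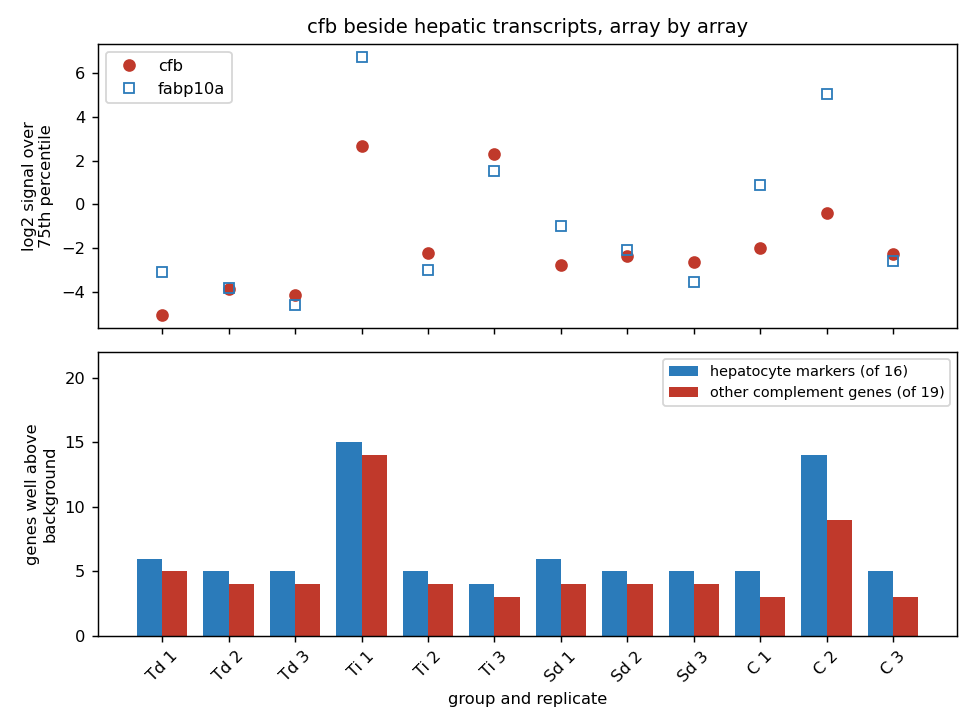
Top, log2 signal over the 75th percentile of cfb and of the hepatocyte marker fabp10a on each of 12 arrays (x axis: group and replicate). Bottom, number of hepatocyte markers (of 16) and of complement genes other than the members (of 19) well above background on each array. Ti replicate 1 and C replicate 2 detect 15 and 14 hepatocyte markers and 14 and 9 other complement genes.

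Of the terminal pathway, c6.2, which encodes complement component C6, was detected on all arrays at 3.55, 3.72 and 3.35 in Td, 3.47, 3.30 and 2.92 in Ti, 3.40, 3.68 and 3.57 in Sd, and 2.83, 2.85 and 3.29 in C brains. Its range over the 12 arrays was narrower than that of any other member, and no comparison called it. The difference was 0.56 ± 0.27 for Sd against C (95% interval -0.04 to 1.16, adjusted p = 0.264), 0.24 ± 0.27 for Ti against C (adjusted p = 0.73), 0.31 ± 0.27 for Td against Ti (adjusted p = 0.826) and 0.11 ± 0.19 for dsRNA against no dsRNA (-0.31 to 0.54, adjusted p = 0.825 in limma). For Td against Sd it was -0.01 (-0.61 to 0.59, adjusted p = 0.993). The closest profiles were wdr35 (0.11), dhrs13l1 (0.12) and slc39a3 (0.12). Such distances scale with a gene's own spread, which was 0.31 for c6.2 and 2.37 for cfb (SD over 12 arrays).

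The rest of the complement system was read from a list of 48 other genes, of which 19 were matched on the array by accession and 4 were tested (cfbl, clu, vtnb and c1qbp). Only cfbl was called. This gene, named as a factor B-like gene, had 2 kept probes and stood at 0.62, 0.16 and 1.06 in Td, 0.33, 0.22 and -0.72 in Ti, 0.17, 1.31 and -0.13 in Sd, and -2.15, -2.26 and -2.60 in C brains. All injected arrays exceeded the C arrays, and the dsRNA and Sd arrays overlapped. Of all transcripts, 7.57% had the dsRNA arrays above C without overlap and 16.8% the Sd arrays. Sd exceeded C by 2.79 ± 0.44 (6.91-fold, adjusted p = 0.0143), Ti exceeded C by 2.28 ± 0.44 (4.86-fold, adjusted p = 0.031), and the dsRNA arrays differed from Sd by -0.17 ± 0.38 (95% interval -1.0 to 0.65, adjusted p = 0.846 in limma). Only 1 of 3 C arrays and 2 of 3 Ti arrays were well above background for cfbl. Its differences from C thus rest largely on C values without a detected signal. Another probe of cfbl, well above background on 1 array, was not kept. The Ti against C call was lost without Ti replicates 1 or 2 or any C replicate, and that of Sd against C without Sd replicate 2 or C replicate 3. Whether cfbl and the C1q genes differ in the step from Sd to dsRNA was not tested.

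Of the other tested genes, clu, which encodes clusterin, an inhibitor of the terminal complex, was detected on all arrays, lay between 3.48 and 5.31, and was called in no comparison. The largest of its differences was -0.82 for the dsRNA arrays against Sd (adjusted p = 0.21). The vitronectin gene vtnb, which also stands in the hepatocyte list, and the C1q-binding protein gene c1qbp were detected on all arrays too and had differences of -0.78 to 0.83 and of -0.23 to -0.04, none of them called.

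The 15 genes that were matched but not tested had no probe well above background on 3 or more arrays, and 4 of them (c3a.6, c8g, colec11 and colec12) had none on any array. Of 12 genes of the list detected on some but not all arrays, 11 were detected on Ti replicate 1 and 6 on C replicate 2, against 0 to 2 on each of the other 10 arrays. On Ti replicate 1 these were cfbl, c3a.2, c3b.2, c8a, cfhl2, hbl4, masp2, c1r, c1s.1, serping1 and vtna. The C3 gene c3a.2 stood at -5.10, -3.72 and -4.07 in Td, 2.41, -2.76 and -0.97 in Ti, -2.08, -2.47 and -2.74 in Sd, and -2.20, 0.26 and -3.22 in C brains. Its signal was thus well above background on Ti replicate 1 and C replicate 2 alone, the same 2 arrays that held most hepatocyte markers, and so was that of c8a, serping1 and vtna. Their part in these detections was not tested.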

How the data were processed

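The authors hybridized brain RNA to single-colour Agilent arrays and deposited for each array the scanner output, whose intensities are linear, background-subtracted and not scaled between arrays. Its header gives Feature Extraction 10.7.3.1, where the methods name another version and array design. The deposited table of the series, headed log2, holds natural log values, which equalled the log of the scanner's background-subtracted signal (tolerance 0.001). The processed signal in each sample's own table matched that of its scanner output on the linear scale.

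Levels are log2 of the processed signal minus each array's 75th percentile. Probes needed a signal well above background on 3 of 12 arrays, which 19142 of 43603 had. Kept probes of a gene were joined by the median, giving 16136 transcripts, 8110 with a symbol. Array names are RefSeq accessions, and 16768 of 18080 such features matched a symbol in GRCz12tu. One limma 3.58.1 model (R 4.3.3) over 4 groups gave two-sided tests with Benjamini-Hochberg adjustment, and was tested on simulated data. With 3 arrays per group, array number limits the precision.

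The members and lists were chosen with earlier results of these data known. Every member matched is named, as are other complement genes that were called, defining markers and the 3 nearest profiles (mean absolute difference of centred levels). The genes clu, vtnb, c1qbp, c3a.2, coro1a, mfap4.1, havcr1 and rbp4 were picked after their values were seen. Lists covered other complement genes, acute-phase, anti-viral, microglia, hepatocyte, neutrophil, lymphocyte, erythrocyte, meningeal and vessel, neuronal and glial genes.

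Deviations of Sd and C arrays with the same number (slide) correlated at 0.557, 0.256 and 0.285, so numbers pair these groups. For other groups some pairs were below 0.1.

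Alternatives were the 50th percentile, quantile scaling, normexp background correction (offset 50, on median signals, since the mean signal is not in the files used here), probe filters, the brightest probe, the slide as a block, an unmoderated test, the series table and leaving out arrays.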

Additional observations from a re-analysis of the deposited data

How the results depend on the processing

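The C1q genes were higher in dsRNA than in the other arrays, in Sd than in C and in Ti than in C under every alternative run. For dsRNA against no dsRNA, c1qa was called in 22 of 22 refits (adjusted p from 0.000275 to 0.0356 in limma), c1qb in 21 of 23 and c1qc in 19 of 23. The filter on all 12 arrays leaves out c1qa, which was well above background on 10. The members called fell to 1 with the 50th percentile and to 1 with normexp in that comparison, to 0 and 1 in Ti against C, and to 0 in Sd against C under both and with no filter on dim probes, against 1 in the series table. Between dsRNA and Sd 1 member was called with the slide as a replicate block (c1qa, adjusted p = 0.0428) and 2 in the series table (c1qa and c1qb). In dsRNA against C the call of c1qc was lost with the 50th percentile, normexp and no filter. Besides this and c1qc in Sd against C, the block changed no member's call. Leaving out 1 array gave 2 to 3 members for dsRNA against no dsRNA and for Ti against C, 0 to 3 for Sd against C and 0 to 1 for Td against Ti. The other complement genes called became 0 in Sd against C, Ti against C and dsRNA against C with the 50th percentile, normexp, no filter, all 12 arrays above background and the series table (quantile scaling: the first 2; the unmoderated test: Ti against C; hepatic arrays left out: the last 2). The filter on all 12 arrays removes cfbl, detected on 9, before any test, so that 0 is not a lost call. Leaving out 1 array gave 0 to 1 in dsRNA against no dsRNA, Sd against C and Ti against C. With Td and Ti exchanged, 2 members and 1 other complement gene were called in the interaction.

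The signs that turned belonged to differences that were not called in the model as reported. With exchange, Td minus Ti became -0.13, -0.34, -0.75, 5.29, 0.18 and -0.31 for c1qa, c1qb, c1qc, cfb, cfd and c6.2, Td minus Sd 3.52 for cfb and 0.03 for cfd, and Ti minus C -2.80 for cfb. In the series table Td minus Ti was -0.46, -0.63, -0.73 and -0.80 for c1qa, c1qb, c1qc and c6.2, and Td minus Sd 0.30 for cfd and 0.06 for c6.2. With the 50th percentile cfd was 0.59 (Td minus Ti) and 0.24 (Td minus Sd), c6.2 0.00 (dsRNA), 0.38 (Td minus Sd) and -0.38 (Ti minus C), and the c1qc interaction 0.26. Quantile scaling gave Td minus Ti of -0.01 for c1qa and 0.02 for cfd, and Td minus Sd of 0.07 for c6.2. Normexp gave 0.15 for cfd (Td minus Ti), -0.05 for c6.2 (Sd minus C) and, for Td minus Sd, 0.13, 0.40 and 0.68 for cfb, cfd and c6.2. Leaving out 1 array gave -0.47 to 0.18 for cfd (Td minus Ti), -0.08 to 1.14 for cfb (dsRNA) and -0.10 to 0.09 for c6.2 (Td minus Sd). The cfb values rest on arrays where it was not well above background. The causes were not tested.

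Over all transcripts, 234 calls for dsRNA against no dsRNA became 83 with the 50th percentile, 148 with quantile scaling, 43 with normexp, 59 with no filter, 87 with detection on all 12 arrays and 452 with the block; 597 for Sd against C became 0, 130, 0, 0, 301 and 1172 in the same order, and 64 in the series table; 198 for Ti against C became 39, 121, 39, 45, 88 and 300, and 80 in the series table. Leaving out 1 array gave 110 to 321, 0 to 1179 and 80 to 270 calls in these 3 comparisons. The 50th percentile moved the median of all transcripts from 0.07 to -0.16 in Sd against C and from 0.00 to -0.62 in Ti against C. At 3 arrays a group, the C1q differences between dsRNA and Sd passed the unadjusted but not the adjusted threshold in the model as reported.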
